A study of Mus musculus with 8 samples.

Results

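Vasoactive and lipid mediators act on hepatic stellate cells through G protein-coupled receptors, and 10 genes of these systems were followed across the response of mouse myofibroblastic stellate cells to inhibition of O-GlcNAc transferase (OGT), which puts single O-GlcNAc sugars on proteins. The 10 genes were taken by name from a table of 40840 genes, and comprise the ligand gene Edn1 and the receptor genes Ednra, Ednrb, Agtr1a, F2r, Lpar1, S1pr1, S1pr2, S1pr3 and Cnr1. All 10 passed the filter on low counts and were among the 19963 genes tested. RNA was sequenced from 8 primary cultures of myofibroblastic hepatic stellate cells (pMF-HSCs). The cells came from male C57BL/6J mice aged 15 to 18 weeks, were sorted from liver by vitamin A autofluorescence after a density gradient, and were kept for 7 days on plastic in medium with serum. The control group (n = 4) received the vehicle DMSO, the name given as "DSMO" for one of its cultures, and the OGTi group (n = 4) received the OGT inhibitor OSMI-1 at 50 µM, in both cases for 24 h. No genetic change was made in either group, and cells activated on plastic without other liver cells limit what the cultures model.

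Stellate cells wrap the liver sinusoid, and once activated they contract and migrate in response to circulating and local mediators. Endothelin-1, angiotensin II, thrombin, lysophosphatidic acid (LPA) and sphingosine 1-phosphate (S1P) each bind receptors of this class, which signal mainly through Gq, G12/13 and Gi proteins to calcium release, RhoA and the contractile apparatus. The cannabinoid receptor CB1, encoded by Cnr1, is coupled mainly to Gi and binds lipid mediators of the endocannabinoid family.

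Of these 10 genes, 5 fell with OGTi, 1 rose and 4 were not called. Edn1, Ednra, Lpar1, S1pr1 and S1pr2 fell, against 10.2% of all genes tested that were lower, and Cnr1 rose, against 8.13% that were higher (quasi-likelihood test of edgeR with replicates as blocks, at a Benjamini-Hochberg adjusted p no higher than 0.05 over all genes). At a limit of 0.01, 2 of the 10 passed, Ednra and S1pr2, against 8.36% of all genes in either direction. The 4 control values lay wholly above the 4 OGTi values for Edn1, Ednra, Lpar1 and S1pr2, a separation present in 12.0% of all genes tested, and the opposite separation was met by 0 of the 10, against 11.5%. The median log2 fold change was -0.86 over the 10 genes and 0.01 over all genes tested. The 10 genes were chosen with earlier results of these data known, so these shares and medians are no independent test of the set. In bulk RNA of this kind, fewer cells with a transcript and less of it per cell cannot be told apart.

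**Figure D1:**
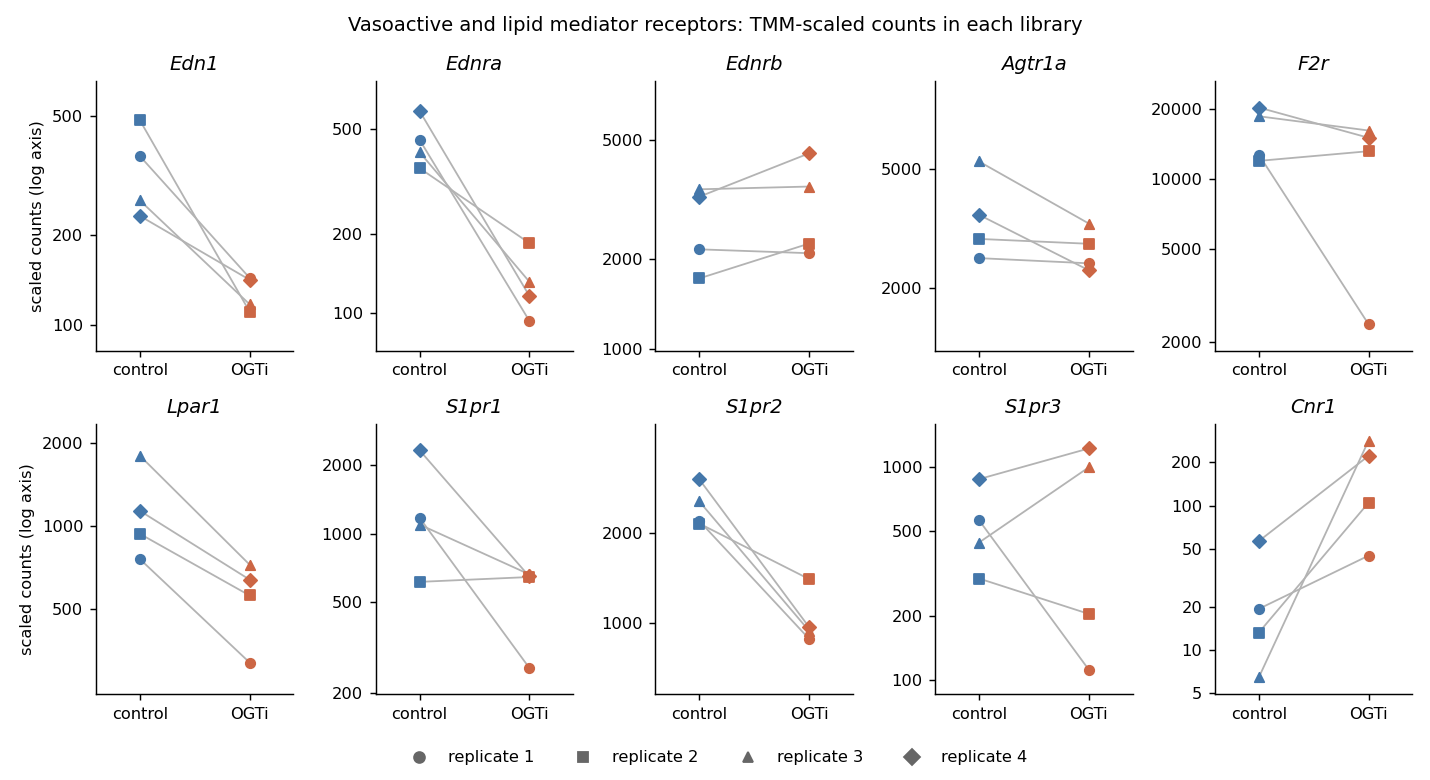
Scaled counts of the 10 genes in each library on log axes, with control libraries in blue, OGTi libraries in orange, marker shapes for replicates 1 to 4 and lines joining the libraries of one replicate. The groups separate for Edn1, Ednra, Lpar1 and S1pr2, Cnr1 rises in 4 of 4 pairs, and OGTi replicate 1 lies far below the other OGTi libraries for F2r and S1pr1.

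Library totals ranged from 30068876 to 37372420 expected counts. Counting error weighs most on Cnr1 in control, with 7 to 59 counts a library, and more on Edn1 and Ednra in OGTi, with 99 to 140 and 91 to 165 counts, than on the more abundant genes. Values below are scaled counts, that is, counts divided by the library size after TMM scaling and brought back to the average library size. They serve to compare libraries, and TPM (transcript abundance corrected for gene length and depth) is used wherever levels of different genes are compared. OGTi replicate 4 had 23746 genes with a count, against 19035 to 20293 in the other 7 libraries. OGTi replicate 1 held the lowest OGTi value for 8 of the 10 genes, against 35.2% of all genes tested and 46.8% of genes of similar length, so results that rest on it are given without it. Calls over all genes were 1623 higher and 2043 lower with TMM, but 2051 and 1732 with upper-quartile scaling and 1256 and 2911 with library totals alone.

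The cultures had the transcripts of myofibroblasts. Myofibroblast markers summed to 5429 to 9592 TPM in control and 5090.2 to 10445 TPM in OGTi, with Acta2 at 1310.1 TPM or more in every library, and 0 of 11 were called with edgeR (5 had an unadjusted p under 0.05, and DESeq2 called 1 higher and 1 lower). Of 14 stellate cell markers tested, 4 fell, among them Lrat, Pdgfrb and Hgf, and 1 rose (Vipr1), with sums of 2136 to 2750.2 TPM in control and 1519.6 to 2714 TPM in OGTi. Endothelial cells also use Edn1, Ednrb and S1pr1, and 2 of 10 endothelial markers tested (Tek and Lyve1) fell, and the whole list summed to 1.57 to 4.46 TPM in control and 0.37 to 1.36 TPM in OGTi. Smooth muscle markers summed to 264 to 482 TPM in control and 190.0 to 380.1 TPM in OGTi, with 0 of 7 called by edgeR or DESeq2 (1 with an unadjusted p under 0.05), and macrophage markers to 37.8 to 66.9 and 41.1 to 79.1 TPM, with 1 of 11 higher (Cd68) and 1 lower (Cd14). Biliary and mesothelial markers (1 of 8 higher, 1 lower) summed to 89.2 to 142 TPM in control and 58.2 to 86.4 TPM in OGTi, mostly Krt19. Of the hepatocyte markers, 1 of 5 tested rose (Cyp2e1, at most 1.20 TPM), Hnf4a and Tat were at 0 in every library, and nearly all of their sum of 197 to 306 TPM in control and 209.9 to 257 TPM in OGTi was Ass1, a gene that is not limited to hepatocytes. Over all genes tested, 8.13% were called higher and 10.2% lower by edgeR. The part of the stellate, endothelial, smooth muscle, macrophage and biliary markers in the results was not tested.

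In the endothelin system the ligand gene Edn1 and the receptor gene Ednra were both lower in OGTi, and the receptor gene Ednrb was not called. Edn1 encodes the precursor of endothelin-1, Ednra the ETA receptor that drives contraction, and Ednrb the ETB receptor that also clears the peptide. Edn1 lies at chr13:42446301-42461466 (GRCm39, plus strand, protein coding, 5 exons in the canonical transcript), Ednra at chr8:78386590-78451552 (minus strand, 8 exons) and Ednrb at chr14:104052053-104081900 (minus strand, 7 exons). Their promoter windows from RefSeq, 250 bases before to 50 after the start annotated by RefSeq, are shown because ligand and ETA receptor fell while the ETB receptor gene was not called. The table was built on GRCm38.p6, and each whole window was found once in GRCm39, at chr13:42454702-42455001 on the plus strand for Edn1, chr8:78451032-78451331 on the minus strand for Ednra and chr14:104081088-104081387 on the minus strand for Ednrb. The canonical transcripts of GENCODE start elsewhere, at 42454742 for Edn1, 78451552 for Ednra and 104081160 for Ednrb. By those starts the whole Ednra window lies inside the transcript.
Edn1: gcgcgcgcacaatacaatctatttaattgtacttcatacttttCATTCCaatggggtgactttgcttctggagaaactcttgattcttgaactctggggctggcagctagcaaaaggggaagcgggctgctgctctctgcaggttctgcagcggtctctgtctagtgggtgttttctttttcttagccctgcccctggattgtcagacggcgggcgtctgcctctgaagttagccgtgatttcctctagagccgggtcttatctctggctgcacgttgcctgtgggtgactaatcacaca
Ednra: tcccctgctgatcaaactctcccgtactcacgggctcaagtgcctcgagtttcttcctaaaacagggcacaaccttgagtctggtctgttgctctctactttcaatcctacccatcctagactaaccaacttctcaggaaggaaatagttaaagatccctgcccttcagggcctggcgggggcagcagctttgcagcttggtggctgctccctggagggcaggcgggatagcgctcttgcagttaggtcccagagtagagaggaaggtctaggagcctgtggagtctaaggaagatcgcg
Ednrb: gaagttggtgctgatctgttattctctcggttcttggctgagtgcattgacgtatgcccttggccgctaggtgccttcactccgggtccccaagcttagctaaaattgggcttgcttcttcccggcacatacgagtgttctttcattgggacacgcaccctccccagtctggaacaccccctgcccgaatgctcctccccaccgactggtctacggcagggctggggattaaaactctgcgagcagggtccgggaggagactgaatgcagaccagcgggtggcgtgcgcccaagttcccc
Capitals mark any of 4 motifs searched on both strands: the TATA box TATAAA, the GC box GGGCGG, the AP-1 site TGANTCA and the core GGAATG bound by TEAD factors, none of which overlap each other here. Over the 32851 windows of this length in the RefSeq table, TATAAA was present in 13.6%, GGGCGG in 35.7%, TGANTCA in 7.81% and GGAATG in 14.7%. The Edn1 window held 1 match, GGAATG on the reverse strand from 207 to 202 bases before the RefSeq start, while those of Ednra and Ednrb held none. By the GENCODE start this match lies just inside the transcript. Windows were found for 8 of the 10 genes, and not for Agtr1a and S1pr1.

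Edn1 measured 367, 484, 261 and 231 scaled counts in control replicates 1 to 4, and 143, 111, 117 and 141 in OGTi replicates 1 to 4. The lowest control culture was thus above the highest OGTi culture, and the 4 OGTi cultures lay closer together than the 4 control cultures, with coefficients of variation of 13.1% and 34.2%. The mean went from 336 ± 115 to 128 ± 16.7 scaled counts (SD, n = 4), and its log2 fold change was -1.34 ± 0.29 (SE; 95% interval -1.98 to -0.69) with an edgeR adjusted p of 0.0104. This was a 2.52-fold lower level, lower in 4 of 4 pairs, and the call held in each of 14 alternative analyses, with adjusted p up to 0.0451.

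Ednra fell most of the 10. Control replicates 1 to 4 held 456, 355, 409 and 587 scaled counts, and OGTi replicates 1 to 4 held 93.2, 184, 131 and 116. Every control culture exceeded every OGTi culture, and replicate 2 had both the lowest control and the highest OGTi value. The sizes of the falls did not follow those of Edn1 from pair to pair. Pair 2 had the largest fall of Edn1 and the smallest of Ednra (-2.12 and -0.94 in log2 units). Pair 4 had the smallest fall of Edn1 and the largest of Ednra (-0.71 and -2.33). The mean went from 452 ± 99.0 to 131 ± 38.7 scaled counts (SD over 4 cultures in each group), or a log2 fold change of -1.80 ± 0.30 (SE; 95% interval -2.46 to -1.14), a 3.49-fold lower level and an edgeR adjusted p of 0.00301. The call held in all 14 alternatives, where the log2 fold change ranged from -2.06 to -1.57.

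Ednrb was the more abundant endothelin receptor and was not called. It measured 2156, 1723, 3425 and 3234 scaled counts in control replicates 1 to 4, and 2092, 2254, 3498 and 4519 in OGTi replicates 1 to 4. The groups overlapped over most of their range, and cultures with the same number had like values. The log2 fold change was 0.21 ± 0.20 (SE; 95% interval -0.23 to 0.66) with an edgeR adjusted p of 0.519, so that a fall of the size seen for Ednra lay outside its interval. On TPM in place of counts (limma-trend), the log2 fold change was -0.10 with a pseudocount of 1 and -0.11 with 0.1, so its sign depended on the scale.

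The share of Ednra among endothelin receptor transcripts was lower in OGTi in each pair. Ednra made up 15.6% ± 3.19 (SD, n = 4; 11% to 18.0%) of the summed TPM of both receptors in control, and 4.61% ± 2.24 (SD, n = 4; 2.57% to 7.78%) in OGTi. The log2 ratio of Ednra to Ednrb TPM changed by -2.26, -1.33, -1.68 and -2.83 in pairs 1 to 4, a mean of -2.02. An exact two-sided sign-flip permutation test over the 4 pairs gave p = 0.13, the smallest it allows, and 0.5 after adjustment over 4 such ratios, so 4 pairs could not pass 0.05 in this test. Summed TPM of both receptors was 43.0 ± 12.8 and 36.1 ± 13.6 in the control and OGTi groups (SD, n = 4), less of a difference than the spread between cultures. On scaled counts Ednrb, the larger part, averaged 2634 in control and 3091 in OGTi, so the direction of this sum depended on the scale.

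**Figure D2:**
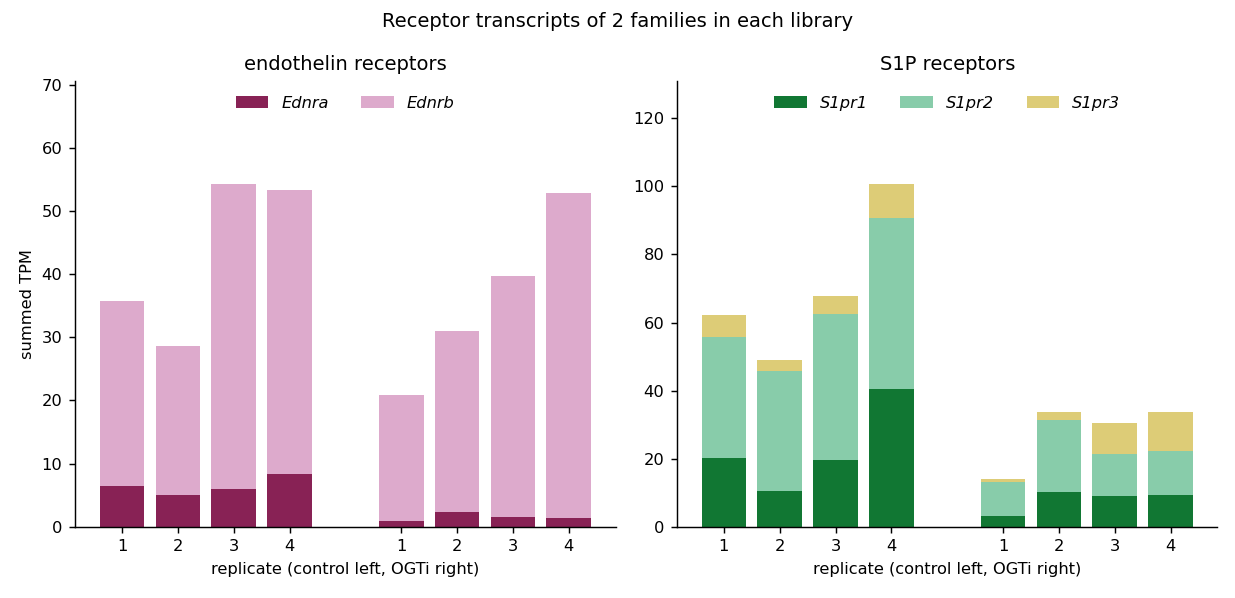
Summed TPM of the endothelin receptors (left) and of the S1P receptors (right) in each library, with control replicates 1 to 4 on the left of each panel, OGTi replicates 1 to 4 on the right, and segments for the single genes. Ednra is a smaller share of the endothelin receptors in each OGTi library, at most 7.78% against at least 11% in control, and the S1P receptor sum is 13.9 to 33.9 TPM in OGTi against 49.1 to 100.7 TPM in control.

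Among other genes of the endothelin system, 1 of 4 tested was lower and 0 were higher, against 10.2% and 8.13% of all genes. Ece1, the protease that releases endothelin-1 from its precursor, fell from 12567 ± 2881 to 5336 ± 915 scaled counts (mean ± SD of 4 cultures), which gave a log2 fold change of -1.22 ± 0.19 (SE) at an adjusted p, by edgeR, of 0.00213, and kept its call in 14 of 14 alternatives. The other ligand gene tested, Edn2, was at 0.24 scaled counts in control and 2.48 in OGTi on average.

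S1P is a lipid of blood and tissue fluid that stellate cells sense through the products of S1pr1, S1pr2 and S1pr3, of which the first couples to Gi and the others also to Gq and G12/13. S1pr1 lies at chr3:115504071-115508721 (GRCm39, minus strand, 2 exons), S1pr2 at chr9:20873657-20914139 (minus strand, 2 exons) and S1pr3 at chr13:51561702-51576833 (plus strand, 2 exons). The RefSeq promoter window of S1pr2, the S1P receptor gene that fell in 4 of 4 pairs, matched GRCm39 at chr9:20888040-20888339 on the minus strand.
S1pr2: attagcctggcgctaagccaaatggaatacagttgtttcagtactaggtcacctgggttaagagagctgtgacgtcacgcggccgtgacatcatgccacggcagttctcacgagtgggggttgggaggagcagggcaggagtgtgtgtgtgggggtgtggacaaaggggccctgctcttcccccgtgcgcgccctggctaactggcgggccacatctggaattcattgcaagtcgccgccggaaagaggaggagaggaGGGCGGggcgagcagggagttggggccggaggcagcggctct
It held 1 GC box, on the forward strand from 9 to 14 bases after the RefSeq start. The S1pr3 window also held 1 GC box.

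S1pr2 transcripts were at 2190.4, 2147, 2546 and 3019 scaled counts in control replicates 1 to 4, and at 883, 1399, 939 and 966 in OGTi replicates 1 to 4. The groups were separate, with OGTi replicate 2 above the other 3 treated cultures. S1pr2 thus fell from 2475 ± 404 to 1047 ± 238 scaled counts (SD, n = 4), and its log2 fold change was -1.25 ± 0.23 (SE; 95% interval -1.78 to -0.73) with an edgeR adjusted p of 0.00535. The call held in 14 of 14 alternatives.

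For S1pr1, control replicates 1 to 4 gave 1173, 615, 1096 and 2319 scaled counts, and OGTi replicates 1 to 4 gave 258, 645, 663 and 649. Control replicate 2 lay among the OGTi values, its pair did not differ (0.07 on the log2 scale), and the groups overlapped. The log2 fold change was -1.17 ± 0.36 (SE; 95% interval -1.98 to -0.36) with an edgeR adjusted p of 0.0487, just inside the limit. The call was lost in 8 of 14 alternatives, with log2 fold changes of -0.83, -1.34 and -0.92 and adjusted p of 0.158, 0.0798 and 0.209 without replicates 1, 3 and 4, and with an adjusted p of 0.0666 without the replicate block.

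S1pr3 was not called, and its pairs went both ways. The gene stood at 564, 299.9, 443 and 881 scaled counts in control replicates 1 to 4 and at 112, 204, 1001 and 1228 in OGTi replicates 1 to 4. Treated replicates 1 and 2 were below their controls and treated replicates 3 and 4 above them, so the OGTi values spanned more than the control range, with a coefficient of variation of 88.2% against 45.2%. The log2 fold change was -0.25 ± 0.49 (SE; 95% interval -1.34 to 0.84) with an edgeR adjusted p of 0.781, and became 0.38 without replicate 1 and 0.22 without the replicate block.

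The 3 S1P receptor genes together summed to 69.9 ± 22.0 TPM in control and 28.0 ± 9.48 TPM in OGTi (SD, n = 4), and the ranges of 49.1 to 100.7 TPM and 13.9 to 33.9 TPM did not overlap. Falls were larger on TPM than on scaled counts. By limma-trend on log2(TPM + 1) the log2 fold changes of S1pr2 and S1pr1 were -1.51 and -1.36, against -1.25 and -1.17 by edgeR. S1pr2 was the largest part in both groups, at 60.5% ± 9.31 and 53.4% ± 16.5 of the sum (SD, n = 4). The share of S1pr3 was 8.73% ± 1.70 in control and 19.1% ± 14.9 in OGTi (SD, n = 4), and OGTi replicates 3 and 4 carried that difference. None of the 3 log2 ratios between these receptors changed in the same direction in all 4 pairs, with mean changes of 0.08 for S1pr1 to S1pr2, -0.86 for S1pr1 to S1pr3 and -0.94 for S1pr2 to S1pr3 and exact permutation p of 1, 0.5 and 0.375 (1, 0.667 and 0.667 adjusted over the 4 ratios). Without replicate 1 these means were 0.40, -1.20 and -1.60, without replicate 2 they were -0.12, -1.35 and -1.23, without replicate 3 they were -0.13, -0.51 and -0.38, and without replicate 4 they were 0.17, -0.37 and -0.55.

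Of 12 other genes of S1P metabolism and signalling tested, 2 were higher and 0 were lower, against 8.13% and 10.2% of all genes. Sphk1, a kinase that makes S1P, rose from 3294 ± 1253 to 7825 ± 2502 scaled counts (SD over 4 cultures in each group), or a log2 fold change of 1.25 ± 0.22 (SE; edgeR adjusted p = 0.00382), and the call held in 14 of 14 alternatives. Acer2, a ceramidase that supplies sphingosine, rose from 463 ± 161 to 1371 ± 579 scaled counts (mean ± SD of 4 cultures), which gave a log2 fold change of 1.51 ± 0.34 (SE) at an adjusted p, by edgeR, of 0.0132, which became 0.0523 without replicate 3 and 0.0526 without replicate 4. The other 10 genes of the list were not called.

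Lpar1 encodes LPA1, a receptor for LPA that couples to Gi, Gq and G12/13. The gene lies at chr4:58435250-58554635 (GRCm39, minus strand, 4 exons in the canonical transcript), and its span overlaps Mir3095 and Gm12577 on its own strand. Whether reads of these genes were counted for Lpar1 was not tested. For this gene 3 RefSeq promoter windows were found, of which 2 held 1 GC box each. Its scaled counts were 759, 937, 1799 and 1135 in control replicates 1 to 4, and 319.5, 559, 724 and 639 in OGTi replicates 1 to 4. The groups were separate by a narrow margin, and replicate 3 was highest in both. The mean went from 1157 ± 455 to 560.4 ± 174 scaled counts (SD, n = 4), and its log2 fold change was -1.03 ± 0.22 (SE; 95% interval -1.53 to -0.54) with an edgeR adjusted p of 0.0101. The fall was met in 4 of 4 pairs, yet the adjusted p was 0.0518 without the replicate block and 0.0824 without replicate 3.

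Of 12 other genes of the LPA system tested, 3 were lower and 1 was higher, against 10.2% and 8.13% of all genes. Lpar6, another LPA receptor gene, fell from 1119 ± 164 to 506 ± 113 scaled counts (SD over 4 cultures in each group), or a log2 fold change of -1.16 ± 0.24 (SE; edgeR adjusted p = 0.00787), and kept its call in 14 of 14 alternatives. Pla1a, a phospholipase that can yield lysophospholipids, fell by 0.94 on the log2 scale (edgeR adjusted p = 0.0359), and Liph, which makes LPA, rose by 1.14 (adjusted p = 0.0384). Both calls were lost without replicate 3, at adjusted p of 0.190 and 0.183, and in 5 and 6 of 14 alternatives in all. Enpp2, which encodes autotaxin, the main LPA-producing enzyme of plasma, was at 8.13 scaled counts in control and 8.36 in OGTi.

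F2r and Agtr1a were the most abundant receptor genes of the set, and neither was called. F2r encodes PAR1, the receptor that thrombin opens by cleavage, and lies at chr13:95737382-95755177 (GRCm39, minus strand, 2 exons). Control replicates 1 to 4 held 12735, 11967, 18617 and 20299.5 scaled counts of F2r, and OGTi replicates 1 to 4 held 2374, 13171, 16167 and 15045. Treated replicate 1 was far below the other 7 cultures, which overlapped. The log2 fold change was -0.69 ± 0.37 (SE; 95% interval -1.52 to 0.13) with an edgeR adjusted p of 0.233, and -0.16 with an adjusted p of 0.564 without replicate 1. The F2r window was the only one of the windows found that held the AP-1 letters, from 204 to 198 bases before the RefSeq start, together with 1 GC box.

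Agtr1a encodes the angiotensin II receptor AT1a and lies at chr13:30518942-30566850 (GRCm39, plus strand, 3 exons), where Gm48161 overlaps it on the same strand. Its near-identical copy Agtr1b was at 0 in all 8 libraries, as was Agtr2. Agtr1a stood at 2512, 2913, 5293 and 3508 scaled counts in control replicates 1 to 4, and at 2414, 2806, 3281 and 2288 in OGTi replicates 1 to 4. Every pair was lower in OGTi, pairs 1 and 2 by 0.06 and 0.05 and pairs 3 and 4 by 0.69 and 0.62 on the log2 scale, and the groups overlapped. The log2 fold change was -0.35 ± 0.21 (SE; 95% interval -0.82 to 0.11) with an edgeR adjusted p of 0.283. On TPM the fall was larger and passed (limma-trend, log2 fold change -0.67, adjusted p = 0.0454), the median of all genes having moved by -0.10 on that scale.

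Around PAR1, 4 of 9 other genes tested were lower and 1 was higher, against 10.2% and 8.13% of all genes. F3, which encodes tissue factor, the starter of the coagulation cascade, fell from 39748 ± 6672 to 7823 ± 1357 scaled counts (mean ± SD of 4 cultures), which gave a log2 fold change of -2.34 ± 0.18 (SE) at an adjusted p, by edgeR, of 0.000186. Procr, the endothelial protein C receptor gene, rose from 4783 ± 918 to 23044 ± 7122 scaled counts (SD, n = 4), and its log2 fold change was 2.25 ± 0.22 (SE; edgeR adjusted p = 0.000317). Both calls held in 14 of 14 alternatives. Tfpi2, a protease inhibitor, and Thbd, which encodes thrombomodulin, a receptor that turns thrombin toward protein C, fell by 1.01 and 0.94 on the log2 scale, with edgeR adjusted p of 0.010 and 0.0371. Without replicate 3 these became 0.0616 and 0.0808, and the Thbd call was also lost without replicates 1 and 4, at 0.117 and 0.165, with filterByExpr at 0.0563 and with length trends removed at 0.0539, 5 of 14 alternatives in all. Thbd was lower in 3 of 4 pairs, and its groups overlapped. Of 7 other renin-angiotensin genes tested, 0 passed in either direction in the edgeR fit with TMM and all replicates, where 1 had an unadjusted p under 0.05. In the alternatives 0 were lower, 2 were higher with DESeq2, 0 passed with limma, and 1 was higher with edgeR after upper-quartile scaling, filterByExpr, removal of length trends or without replicate 1.

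Cnr1 was the gene of the set that rose, from the lowest level. It lies at chr4:33922982-33948836 (GRCm39, plus strand, 2 exons in the canonical transcript). RefSeq gives 3 promoter windows for it, and the one farthest upstream, at chr4:33924014-33924313 on the plus strand of GRCm39, is shown as the window with the most motif matches.
Cnr1: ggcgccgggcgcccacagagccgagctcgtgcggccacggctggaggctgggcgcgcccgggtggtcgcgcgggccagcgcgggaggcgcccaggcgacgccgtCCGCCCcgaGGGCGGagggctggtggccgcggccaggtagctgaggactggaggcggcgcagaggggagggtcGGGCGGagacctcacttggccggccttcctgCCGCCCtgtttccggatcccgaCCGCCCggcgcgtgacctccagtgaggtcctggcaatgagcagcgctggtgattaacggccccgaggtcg
It held 5 GC boxes, from 146 to 15 bases before the RefSeq start, and its GC content of 76.3% compares with a median of 52.7% over all windows. The canonical transcript of GENCODE starts at 33924015, and by that start the GC boxes lie inside the transcript. The other windows of Cnr1 held 0 of the motifs searched.

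Cnr1 counts were few in control, with 21, 15, 7 and 59 expected counts in replicates 1 to 4, against 44, 94, 256 and 193 in OGTi. Scaled counts were 19.3, 13.2, 6.45 and 56.8 in control and 45.1, 105, 282 and 222 in OGTi. Every treated culture exceeded its own control, but control replicate 4 was above OGTi replicate 1, so the groups overlapped. The log2 fold change was 2.76 ± 0.60 (SE; 95% interval 1.43 to 4.08), a 6.76-fold higher level whose interval ran from 2.70-fold to 16.9-fold, with an edgeR adjusted p of 0.0104. Without replicate 1 its log2 fold change was 3.28, and without replicate 3 it was 2.05. The rise was called in 14 of 14 alternatives, at adjusted p up to 0.0439, though its size was 0.77 on log2(TPM + 1), a scale that compresses low genes. In OGTi the mean was 1.14 ± 0.73 TPM (SD, n = 4), still the lowest of the 10 genes.

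Of 13 other genes of the endocannabinoid system tested, 4 were higher and 2 were lower, against 8.13% and 10.2% of all genes. Dagla, which makes the CB1 ligand 2-arachidonoylglycerol, fell from 211 ± 80.3 to 80.2 ± 44.1 scaled counts (SD, n = 4; log2 fold change -1.49 ± 0.28 (SE), edgeR adjusted p = 0.00556, or 0.0542 without the replicate block). Cnrip1, which encodes a protein that binds the tail of CB1, fell by 1.11 on the log2 scale with an edgeR adjusted p of 0.0131, lost without replicates 3 and 4 at 0.0755 and 0.0677. Abhd12 and Naaa, which break down endocannabinoids and related lipids, and Abhd4, which helps to form them, had log2 fold changes of 1.47, 0.74 and 0.68 with edgeR adjusted p of 0.0321, 0.0459 and 0.0270, and lost their calls in 6, 8 and 6 of 14 alternatives. Without replicate 3, for one, their adjusted p was 0.0623, 0.175 and 0.156. The fourth gene that rose, Cnr2 for the CB2 receptor, was at 2.5 scaled counts in control and 16.2 in OGTi.

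**Figure D3:**
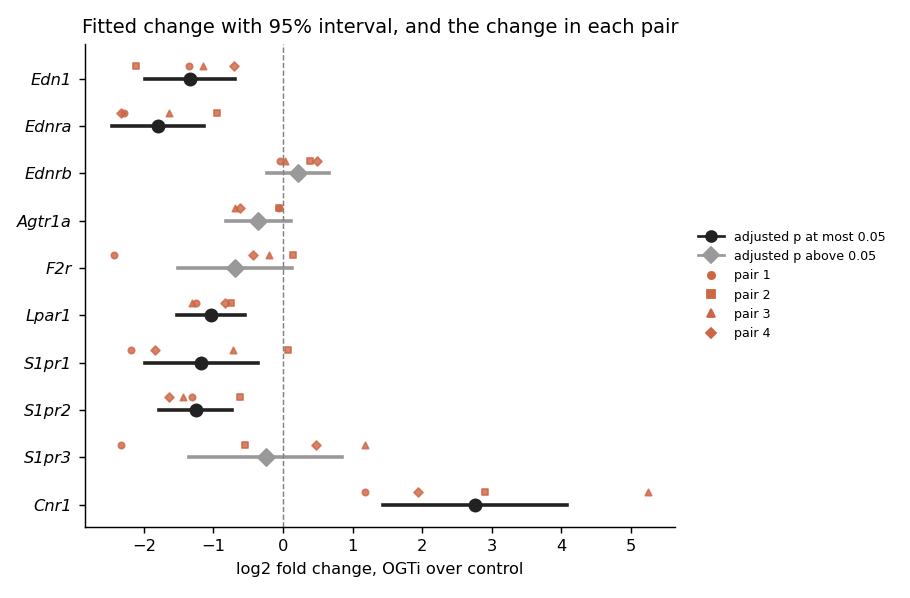
Log2 fold change of each gene, OGTi over control, from the edgeR fit with the replicate block, with 95% intervals as bars (black where the adjusted p is at most 0.05, grey otherwise) and the change in each of the 4 pairs as orange marks above. The marks of Cnr1, F2r and S1pr3 are spread most widely, with pair 1 lowest, and those of Edn1, Ednra, Lpar1 and S1pr2 are all below 0.

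The levels of the 10 genes covered a wide range per length. In control, mean TPM ran from 250 ± 68.9 for F2r and 86.3 ± 31.4 for Agtr1a through 40.9 ± 7.07 for S1pr2, 36.5 ± 11.9 for Ednrb, 22.7 ± 12.7 for S1pr1 and 17.2 ± 7.12 for Lpar1 to 8.55 ± 2.81 for Edn1, 6.46 ± 1.44 for Ednra, 6.28 ± 2.85 for S1pr3 and 0.21 ± 0.19 for Cnr1 (SD, n = 4). F2r was higher in control than 96.0% of all genes tested and Cnr1 than 26.8%. Neighbours in this order had ranges that did not overlap in 3 places, F2r over Agtr1a, Agtr1a over S1pr2 and S1pr3 over Cnr1, while the others could not be told apart by range. Leaving out a control replicate kept between 8 and 10 of the genes at their place.

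In OGTi, F2r (152 ± 84.6 TPM) and Agtr1a (52.4 ± 11.7 TPM) stayed first, followed by Ednrb, S1pr2, S1pr1, Lpar1, S1pr3, Edn1, Ednra and Cnr1, and every pair of neighbours overlapped (n = 4). Ednrb, at 34.6 ± 13.6 TPM, exceeded S1pr2, at 14.1 ± 4.88 TPM (SD, n = 4), in 4 of 4 OGTi cultures, whereas S1pr2 exceeded Ednrb in 3 of 4 control cultures. Edn1 and Ednra, at 2.60 ± 0.26 and 1.54 ± 0.63 TPM (SD, n = 4), stood next above Cnr1, whose range of 0.27 to 1.90 TPM overlapped that of Ednra but not that of Edn1.

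**Figure D4:**
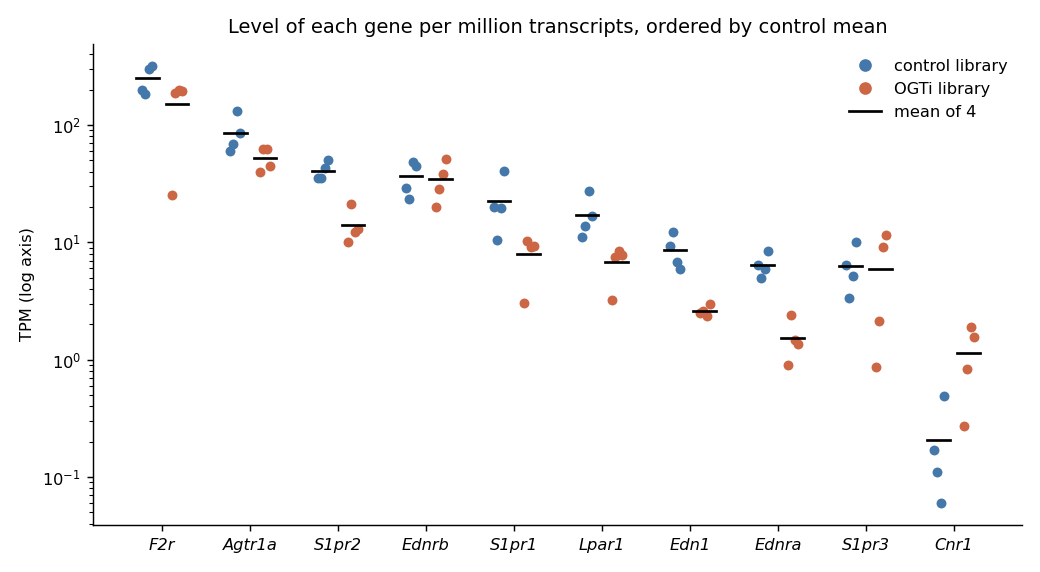
TPM of each gene per library on a log axis, ordered by the control mean, with control libraries in blue, OGTi libraries in orange and black lines for the mean of 4. F2r is highest and Cnr1 lowest in both groups, and OGTi replicate 1 is the single low OGTi point of F2r, at 25.4 TPM.

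Over the 8 libraries, the genes whose pattern was most like that of a called gene were named by the correlation of log2 scaled counts, a description that includes the difference between groups. Of 11937 genes compared, Hmgb2 (r = 0.991) and Rell1 (r = 0.978) came closest to Edn1, Smarcad1 (r = 0.994) and Pcdh9 (r = 0.99) to Ednra, and Mmp19 (r = 0.977) and Dgka (r = 0.976) to Lpar1. Kdm5c (r = 0.988) and Wipf1 (r = 0.986) came closest to S1pr1, H6pd (r = 0.994) and Spats2 (r = 0.994) to S1pr2, and Acer2 (r = 0.983) and Hid1 (r = 0.971) to Cnr1. Acer2, which rose beside Sphk1 in the S1P system, was thus the gene closest to Cnr1.

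Downstream of these receptors, 20 G protein subunit genes were tested. Of these, 1 was higher and 4 were lower, against 8.13% and 10.2% of all genes. Gnas, which encodes the stimulatory Gs alpha subunit, rose by 0.70 on the log2 scale (edgeR adjusted p = 0.0497), and Gng11, Gnb4 and Gng10, which encode beta and gamma subunits, fell by 0.98, 0.86 and 0.80 (adjusted p of 0.0236, 0.0224 and 0.040). These 4 calls were lost in 7, 3, 2 and 6 of 14 alternatives, and without replicate 4 their adjusted p was 0.151, 0.105, 0.0966 and 0.151. The alpha subunit genes for Gq, G11, G12 and G13 were not called.

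Of the 20 regulators tested (RGS proteins, receptor kinases and arrestins), 4 were higher and 6 were lower, against 8.13% and 10.2% of all genes. Rgs2, a brake on Gq, rose from 33.9 ± 10.4 to 197 ± 122 scaled counts (SD, n = 4; log2 fold change 2.31 ± 0.38 (SE), edgeR adjusted p = 0.00300). Arrb1, which encodes beta-arrestin 1, fell from 299 ± 65.4 to 61.6 ± 37.0 (log2 fold change -2.42 ± 0.43 SE, adjusted p = 0.00409). Grk5, a kinase that desensitises receptors, went from 2367 ± 153 to 986 ± 245 (log2 fold change -1.29 ± 0.23 SE, adjusted p = 0.00452), and these 3 calls held in 14 of 14 alternatives. Rgs20 (1.11) and Grk4 (0.99) rose and Rgs17 (-1.54) fell on the log2 scale, with edgeR adjusted p of 0.0260, 0.0350 and 0.0410, and these calls were lost in 5, 7 and 5 of 14 alternatives. Without replicate 3 the adjusted p was 0.159, 0.0708 and 0.165, and without replicate 4 it was 0.0968, 0.140 and 0.150. The Grk4 call was also lost without replicates 1 and 2 (0.0903 and 0.0504), that of Rgs20 without replicate 2 (0.0518) and that of Rgs17 without replicate 1 (0.0755).

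Among 22 effectors of Gq and G12/13 tested, 3 were lower and 0 were higher, against 10.2% and 8.13% of all genes. Trpc6, a calcium channel opened by receptor signalling, went from 911 ± 709.7 to 112 ± 84.3 scaled counts (SD over 4 cultures in each group), or a log2 fold change of -3.11 ± 0.45 (SE) at an adjusted p, by edgeR, of 0.00158. Mylk, the myosin light chain kinase gene, went from 4669 ± 1795 to 1466 ± 309 (log2 fold change -1.61 ± 0.31 SE, adjusted p = 0.00627). Both were lower in 4 of 4 pairs and in each alternative. Itpr1, a calcium release channel gene, fell by 1.07 in log2 units (adjusted p = 0.0263), a call lost without replicates 1, 3 and 4 at 0.0582, 0.0698 and 0.107.

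Of 28 other vasoactive receptor and receptor-linked genes tested, 3 were higher and 11 were lower, against 8.13% and 10.2% of all genes. The largest falls with at least 50 scaled counts were those of Adora2b (log2 fold change -3.65 ± 0.45 (SE), edgeR adjusted p = 0.000788), Adra2b (-2.89 ± 0.29, 0.000317) and Adora2a (-2.85 ± 0.32, 0.000512), which encode adenosine and adrenergic receptors. Adora2b went from 723 ± 367 to 52.3 ± 17.7 scaled counts, Adra2b from 1310.0 ± 203 to 179.9 ± 47.4 and Adora2a from 422 ± 150.0 to 57.0 ± 18.7 (SD, n = 4). These 3 calls held in each alternative. Htr2b, a serotonin receptor gene, and Vipr1, a receptor gene for vasoactive intestinal peptide, rose by 1.87 and 1.24 on the log2 scale with edgeR adjusted p of 0.0117 and 0.0272, lost without replicate 3 at 0.0690 and 0.104 and without replicate 4 at 0.0633 and 0.129. Htr2b lost its call in these 2 of 14 alternatives and Vipr1 in 6, also without replicate 2 at 0.0710. Some of these genes, among them Cnr1 and the adenosine receptor genes, are on the study's own lists of strongly changed genes in these libraries, so the lists are no independent evidence of direction.

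**Figure D5:**
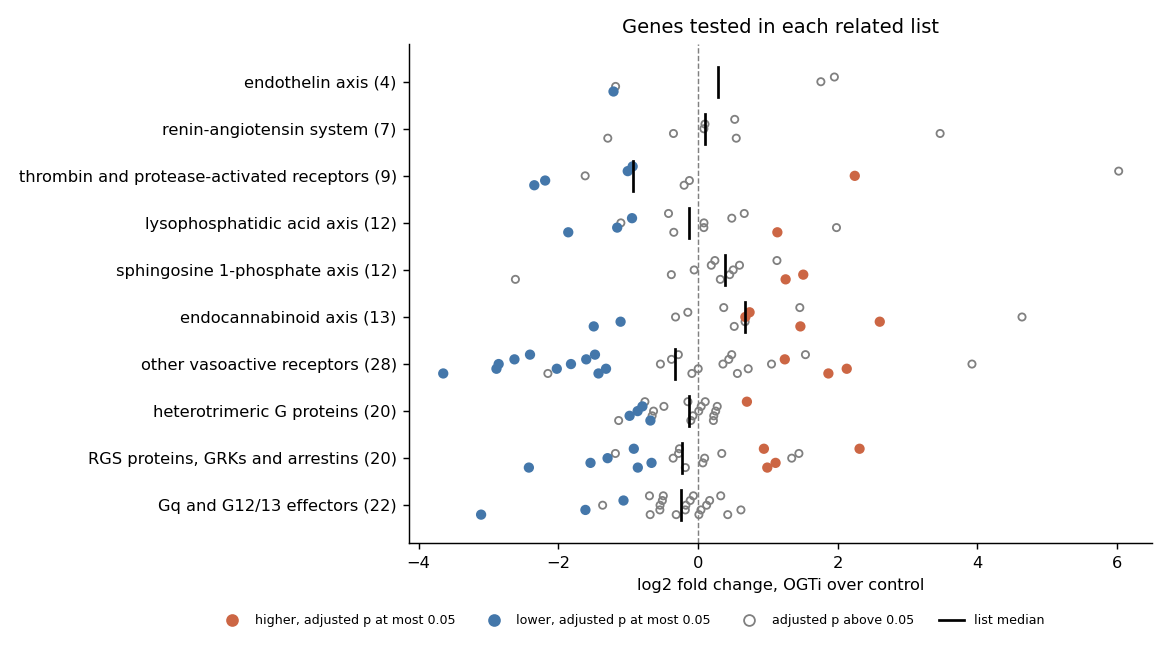
Log2 fold change, OGTi over control, of every gene tested in 10 related lists (number tested in brackets), with called genes filled (orange higher, blue lower), other genes open and list medians as black lines. Lower calls outnumber higher ones in 7 of the 10 lists, the widest falls are among other vasoactive receptors, and the open circles farthest to the right are genes at or near 0 counts in control, whose fitted size depends on the prior count.

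Across the 10 lists, 147 of 162 genes were tested, of which 16 were higher (10.9%, against 8.13% of all genes) and 34 were lower (23.1%, against 10.2%), with a median log2 fold change of -0.10. The lists too were chosen with earlier results of these data known, so these shares are no independent test of them. The numbers depended on the cultures used. Without replicate 3 they were 4 and 17, and without replicate 4 they were 4 and 20, in fits of 6 libraries in which calls over all genes also dropped, to 843 higher and 1062 lower and to 894 and 1062.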

How the data were processed

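According to the labels and methods, the authors sequenced stranded oligo(dT) libraries in pairs of reads, mapped them with Bowtie2 2.3.5.1 to mm39 (GRCm39) and counted them with RSEM 1.3.1. The authors deposited 1 table per library, with expected counts estimated by RSEM and TPM per gene, and transcript identifiers there are RefSeq ones although the methods name GENCODE. A deposited table of the authors' own comparison (DESeq2 1.36.0) holds fold changes and p-values and was not used. Columns with values of further samples numbered 0.

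Expected counts were rounded, genes with a total of at least 10 were kept, and edgeR 4.0.16 (R 4.3.3; TMM, glmQLFit, glmQLFTest) was fitted with treatment and the replicate number as a block, since the methods pair cultures of one replicate. Same-numbered libraries had deviations from group means that correlated at 0.160, 0.224, 0.105 and 0.318 across genes, and others at -0.312 to 0.208. P-values were adjusted over all 19963 genes by the Benjamini-Hochberg method, with calls at 0.05. The standard error is the log2 fold change divided by the root of F. The script was tested on simulated data that varied less between cultures than these. Changes were planted only in genes with a mean of at least 50 counts, so the simulation does not cover calls on genes below that. Alternatives used DESeq2 1.42.0 and limma 3.58.1 on log2(TPM + 1) or log2(TPM + 0.1), other scalings and filters, removal of length trends, and each replicate left out.

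The 10 genes and the lists were chosen with earlier results of these data known. From each related list, called genes with a mean of at least 50 scaled counts were named, up to 3 in each direction, and genes named outside that rule were chosen after their values were seen. Gene positions are from GENCODE vM39, promoter windows from RefSeq. Some genes that the rule would name are not reported here.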

Additional observations from a re-analysis of the deposited data

Results flagged for a closer look

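In 28 groups of 4 libraries (the 10 genes and the 4 receptor ratios, in control and in OGTi), 2 had a library whose gap to the nearest of the others exceeded, as a share of the group's range, the 95% critical value of Dixon's test, and chance alone would give about 1.4. S1pr1 in OGTi replicate 1 was at 258 scaled counts, against 645 to 663 in the other 3 treated cultures. S1pr2 in OGTi replicate 2 was at 1399 scaled counts, against 883 to 966 in the others.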

How the results depend on the processing

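Of the 10 genes, 5 were called lower in the fit reported, 3 without the replicate block and 2 with the limit on the adjusted p set to 0.01, where 0 were called higher in place of 1. Leaving out each replicate in turn gave 3 to 5 lower and 1 higher. Lower calls over all genes tested also dropped, from 2043 to 1532 without the block and to between 1062 and 1744 without a replicate. The limit of 0.01 was passed by 8.36% of all genes in either direction. Of the calls lost without the replicate block, Lpar1 had an adjusted p of 0.0518 and S1pr1 of 0.0666, and the block changed no other call among the 10. Among named list genes, Pla1a, Dagla, Abhd12, Naaa, Vipr1, Gnas, Gng10 and Gng11 also lost their calls without it. Edn1, Ednra, S1pr2 and Cnr1 kept their direction and call in the 14 alternatives run. Ednrb, not called in any fit, had a log2 fold change of -0.10 and -0.11 with limma-trend on log2(TPM + 1) and log2(TPM + 0.1). S1pr3, likewise not called, had 0.22 without the replicate block, 0.0019 with length trends removed and -0.77 to 0.38 without a replicate. The change in the log2 ratio of S1pr1 to S1pr2 ranged from -0.13 to 0.40 over fits without a replicate. Genes of the related lists called higher numbered 9 with library totals alone, 7 with limma-trend at either pseudocount and 4 to 12 without a replicate, against 16, and those called lower numbered 17 to 30 without a replicate, against 34. They were 23 higher and 28 lower with length trends removed, 22 and 35 with DESeq2, and 20 and 29 with upper-quartile scaling. The cause of these shifts was not tested, and the fits without a replicate hold fewer samples. The lowest counts among the 10 were those of Cnr1 in control, at 7 to 59 a library.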
